A study of Rattus norvegicus with 16 samples.

Results

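The TCA cycle enzymes described here are a list of mitochondrial enzymes of the cycle other than succinate dehydrogenase (complex II), chosen by gene symbol. The list does not hold every such enzyme, and others, such as Fh, Suclg2, Dld and Idh2, are read further below. The list names 9 genes, Cs, Idh3a, Idh3b, Idh3g, Ogdh, Dlst, Suclg1, Sucla2 and Mdh2, and 8 of them were measured among the 17055 gene symbols of the series, while Idh3b is not analysed here. Liver RNA came from 48 male Sprague-Dawley rats aged 10 weeks, and each of the 16 libraries pooled liver tissue of 3 rats, with 4 libraries in each of 4 groups. Libraries 1 to 4 are isoflurane sepsis and 5 to 8 isoflurane control, from rats that were both induced and maintained with isoflurane. Libraries 9 to 12 are propofol sepsis and 13 to 16 propofol control, from rats that were induced with ketamine and xylazine and then maintained with propofol. Sepsis was produced by cecal ligation and puncture (CLP), whereas control rats had a celiotomy in which the cecum was lifted out and put back. All rats breathed pure oxygen and liver was taken 8 h after the celiotomy. Every group, controls included, thus had a celiotomy, which was closed, and hours of anesthesia. No group without anesthesia is among the libraries. Replicates are therefore pools, and rat-to-rat variation was not measured.

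The TCA cycle oxidizes acetyl-CoA to carbon dioxide in the mitochondrial matrix and hands the electrons to the respiratory chain. In the liver it also supplies citrate for fat synthesis, oxaloacetate for gluconeogenesis and carbon for amino acid metabolism. Cs (citrate synthase) joins acetyl-CoA to oxaloacetate, and the NAD-dependent isocitrate dehydrogenase, with Idh3a as its catalytic and Idh3g as a regulatory subunit, releases the first carbon dioxide. Ogdh and Dlst are the dehydrogenase and the lipoyl-bearing core of the 2-oxoglutarate dehydrogenase complex. Suclg1 is the alpha subunit of succinyl-CoA synthetase and pairs with Sucla2 in the ADP-forming enzyme, and Mdh2 (malate dehydrogenase) regenerates oxaloacetate.

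Reads on genes numbered from 14199422 to 49937173 per library, and the 8 genes together took from 11841 to 44767 reads, that is from 0.0648% to 0.0933% of the reads on genes. The least read value was Idh3a with 451 reads in a library. Levels below are counts per 1000000 reads on genes (CPM) after TMM scaling over the 16 libraries, with the SD over the 4 libraries of a group, and fold changes and their tests are from edgeR's quasi-likelihood test with Benjamini-Hochberg adjustment over all genes tested, called at an adjusted p below 0.05. CPM is not divided by transcript length, so levels are compared between groups and not between genes. In bulk liver, fewer cells of a type and less RNA per cell cannot be told apart.

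Promoter sequences of the 2 subunits of succinyl-CoA synthetase are shown because their mRNAs moved together, and that of Cs because its mRNA did not pass the test under either anesthetic. They are RefSeq sequences of rat build GRCr8, 300 bases each, all on the plus strand, and capitals mark matches to the motifs searched. Suclg1 is shown at chr4:106866079-106866378, Sucla2 at chr15:55161644-55161943 and Cs at chr7:1348139-1348438.
Suclg1: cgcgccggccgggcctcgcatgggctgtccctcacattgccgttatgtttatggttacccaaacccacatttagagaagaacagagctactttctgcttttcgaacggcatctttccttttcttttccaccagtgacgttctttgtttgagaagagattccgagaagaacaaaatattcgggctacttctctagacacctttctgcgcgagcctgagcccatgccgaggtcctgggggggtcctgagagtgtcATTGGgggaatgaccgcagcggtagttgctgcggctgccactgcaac
Sucla2: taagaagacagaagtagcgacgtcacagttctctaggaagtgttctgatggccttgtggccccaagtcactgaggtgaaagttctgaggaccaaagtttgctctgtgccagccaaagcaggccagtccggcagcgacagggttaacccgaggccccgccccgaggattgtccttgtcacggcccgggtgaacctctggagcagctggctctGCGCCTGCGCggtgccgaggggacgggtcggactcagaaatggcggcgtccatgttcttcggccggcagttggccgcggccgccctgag
Cs: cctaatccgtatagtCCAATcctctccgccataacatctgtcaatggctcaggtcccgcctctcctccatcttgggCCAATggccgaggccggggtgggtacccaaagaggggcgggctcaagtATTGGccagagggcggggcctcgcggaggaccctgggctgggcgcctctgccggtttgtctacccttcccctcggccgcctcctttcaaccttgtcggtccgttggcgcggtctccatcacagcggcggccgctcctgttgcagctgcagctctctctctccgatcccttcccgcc
The 4 motifs were searched on both strands, and 7 of the 8 genes had a promoter entry, Idh3a being the exception. The NF-Y motif CCAAT was found in the promoters of Cs, Idh3g, Ogdh and Suclg1, 4 of 7, against 37.5% of all 33469 promoters of this length. The ETS motif CCGGAAG was found in Idh3g, Dlst and Mdh2, 3 of 7, against 8.75%. The NRF1 motif, GCGCA and any base and GCGC, was found in Sucla2 alone, 1 of 7, against 4.25%, and that of the estrogen-related receptors, TNAAGGTCA, in 0 of 7, against 1.2%. No 2 of these motifs overlapped within the 3 promoters shown. Suclg1 and Sucla2 thus shared no motif among those searched, and Cs had 3 CCAAT matches. A match describes letters and not a bound site.

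Under isoflurane, 6 of the 8 genes had lower mRNA in sepsis than in control. Suclg1, Sucla2, Mdh2, Idh3a, Idh3g and Dlst fell, and Ogdh and Cs did not pass the test. The 6 are read against 24.4% of all 10361 genes tested that were called lower. In the same 6 genes all 4 sepsis libraries lay below all 4 control libraries, which held for 24.4% of all genes. The median log2 fold change of the 8 genes was -0.26, beside 0.01 over all genes tested, and the falls ranged from 14.2% for Idh3g to 29.6% for Suclg1. Reads outside genes moved with the same comparison, at 23.1% to 25.4% of reads in isoflurane sepsis, highest in libraries 3 and 4, against 22.4% to 22.95% in control, and their part in the result was not tested.

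Under propofol, only Suclg1 and Sucla2 among the 8 fell, by 14.1% and 13.2%. Of all 10348 genes tested, 21.7% were called lower, so that 2 of 8 is near the background. All 4 sepsis libraries lay below the controls in the same 2 genes, against 21.1% of all genes. The median log2 fold change of the 8 genes was -0.05, beside -0.0016 over all genes tested. Reads outside genes made up 22.25% to 23.3% of reads in propofol sepsis and 21.6% to 22.1% in control. No member was called higher under either anesthetic, where 25.7% and 20.4% of all genes were called higher under isoflurane and propofol.

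**Figure D1:**
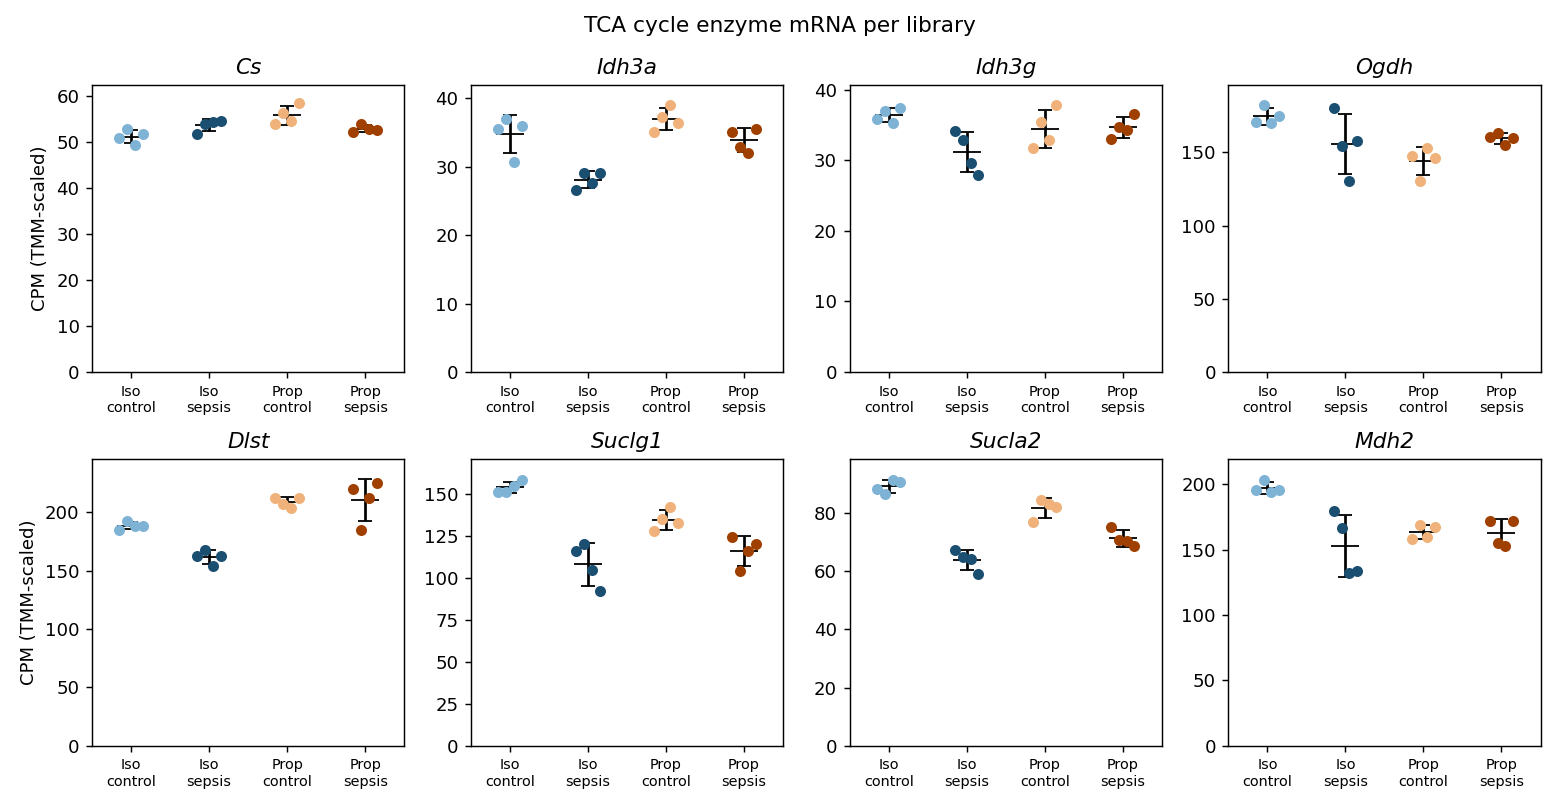
TMM-scaled CPM of the 8 TCA cycle enzymes in each of the 16 libraries (points), with the mean (bar) and SD (whiskers) of the 4 libraries of each group; each vertical axis starts at 0 and has its own scale. The isoflurane sepsis points lie below all isoflurane control points for every gene except Cs and Ogdh, while the propofol groups separate downward only for Suclg1 and Sucla2.

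Cs, at the entry of the cycle, was the flattest of the 8 genes. It measured 51.6, 53.8, 54.4 and 54.4 CPM in isoflurane sepsis and 50.8, 52.7, 49.3 and 51.7 in isoflurane control, and the groups overlapped. In propofol sepsis it measured 52.0, 53.8, 52.7 and 52.6 CPM, and in propofol control 53.8, 56.3, 54.4 and 58.3. Sepsis minus control on the log2 scale was 0.07 ± 0.0595 (SE; 95% interval from -0.06 to 0.20; adjusted p = 0.355) under isoflurane and -0.09 ± 0.0530 (from -0.20 to 0.03; adjusted p = 0.219) under propofol. Its group means lay within a factor of 1.09 of each other, and no neighbours in the order of groups were separated.

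Idh3a, the catalytic subunit of isocitrate dehydrogenase, measured 26.6, 29.1, 27.6 and 29.1 CPM in isoflurane sepsis and 35.5, 36.9, 30.6 and 36.0 in control. All sepsis libraries were below the lowest control, itself below the other three. This was a log2 fold change of -0.31 ± 0.0794 (SE; adjusted p = 0.0116), a level 19.1% lower. In propofol sepsis Idh3a measured 35.0, 32.9, 32.0 and 35.6 CPM against 35.1, 37.3, 39.0 and 36.4 in control, with an overlap between the groups. Between these groups the log2 fold change was -0.13 ± 0.0617 (95% interval from -0.27 to 0.0066; adjusted p = 0.112), and it was called lower with library totals (adjusted p = 0.0311). Isoflurane sepsis, at 28.1 ± 1.25 CPM, was the only group separated from its neighbour in the order of levels.

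Idh3g, a regulatory subunit of the same enzyme, measured 34.1, 32.9, 29.6 and 27.98 CPM in isoflurane sepsis and 35.8, 37.0, 35.3 and 37.4 in control. The sepsis libraries were all lower, and libraries 3 and 4 lowest. The log2 fold change was -0.22 ± 0.0760 (SE; adjusted p = 0.0372), but the call was lost without any 1 of libraries 3 to 8, with an adjusted p of up to 0.0970. In propofol sepsis Idh3g measured 33.1, 34.8, 34.3 and 36.6 CPM and in propofol control 31.8, 35.4, 32.8 and 37.9, so the sepsis values lay inside the control range. Sepsis minus control on the log2 scale was 0.0023 ± 0.0717 (95% interval from -0.16 to 0.16; adjusted p = 0.983), and its sign turned under several alternatives.

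Ogdh, the dehydrogenase of the 2-oxoglutarate complex, measured 180.6, 154, 131 and 158 CPM in isoflurane sepsis and 171, 182, 170.0 and 175 in control. Library 1 sat within the control range and library 3 far below it, so the groups overlapped. This was a log2 fold change of -0.16 ± 0.0904 (SE; 95% interval from -0.37 to 0.04; adjusted p = 0.160). It passed the test only when library 1 was left out (adjusted p = 0.0356). In propofol sepsis Ogdh measured 161, 163, 155 and 159.6 CPM against 147, 130.2, 153 and 146 in control, with every sepsis library above every control. Between these groups the log2 fold change was 0.14 ± 0.0618 (95% interval from 0.0018 to 0.28; adjusted p = 0.0937), which did not pass, and 21.2% of all genes had sepsis libraries above all controls. Ogdh was the only one of the 8 genes with this order.

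Dlst, the lipoyl-bearing core of the same complex, had tight groups under isoflurane. It measured 162, 168, 154 and 162 CPM in sepsis and 185, 193, 188 and 188 in control, with a gap between the groups. The log2 fold change was -0.22 ± 0.0594 (SE; adjusted p = 0.0134), a level 14.2% lower. In propofol sepsis it measured 220.2, 185, 212 and 225 CPM and in control 213, 207, 204 and 212. Library 10 was below the controls and libraries 9 and 12 above them. Sepsis minus control on the log2 scale was 0.0058 ± 0.0702 (95% interval from -0.15 to 0.16; adjusted p = 0.957).

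Suclg1, the alpha subunit of succinyl-CoA synthetase, had the lowest fold change of the 8 genes under both anesthetics. It measured 116, 120.2, 104 and 91.9 CPM in isoflurane sepsis against 151, 151, 155 and 158 in control, a wide gap with library 4 lowest. This was a log2 fold change of -0.51 ± 0.0889 (SE; adjusted p = 0.00188), a level 29.6% lower. In propofol sepsis it measured 124, 104, 116 and 119.8 CPM and in control 128, 135, 142 and 133, again with no overlap. Between these groups the log2 fold change was -0.22 ± 0.0692 (adjusted p = 0.0292), a level 14.1% lower. This propofol call was lost without any 1 of libraries 10, 11, 12, 14, 15 or 16 (adjusted p up to 0.0747) and with no limit on low counts (adjusted p = 0.0567).

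Sucla2, the ADP-forming beta subunit that pairs with Suclg1, measured 67.3, 64.8, 64.1 and 59.0 CPM in isoflurane sepsis and 88.1, 86.7, 91.5 and 90.8 in control. The log2 fold change was -0.48 ± 0.0642 (SE; adjusted p = 4.924e-04), a level 28.4% lower. In propofol sepsis it measured 75.4, 70.7, 70.3 and 68.8 CPM against 76.9, 84.7, 83.2 and 82.2 in control. The groups did not overlap, although library 9 came close to library 13. Sepsis minus control on the log2 scale was -0.20 ± 0.0584 (adjusted p = 0.0189), a level 13.2% lower, and this call was lost without library 11, 12 or 14 (adjusted p up to 0.0579). Sucla2 was the only one of the 8 genes whose 4 groups were all separated. Its order ran from isoflurane control at 89.3 ± 2.24 CPM through propofol control at 81.7 ± 3.41 and propofol sepsis at 71.3 ± 2.84 to isoflurane sepsis at 63.8 ± 3.50.

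Mdh2, which closes the cycle, measured 179.8, 166, 132 and 133 CPM in isoflurane sepsis and 195, 203, 194 and 196 in control. All sepsis libraries were lower, and libraries 3 and 4 stood well below libraries 1 and 2. This was a log2 fold change of -0.36 ± 0.103 (SE; adjusted p = 0.0165), a level 22.4% lower. In propofol sepsis it measured 172, 155, 153 and 172 CPM against 158, 169, 159 and 167 in control, and the groups interleaved. Between these groups the log2 fold change was -0.01 ± 0.0644 (95% interval from -0.15 to 0.13; adjusted p = 0.914). The calls of Idh3a, Dlst, Suclg1, Sucla2 and Mdh2 under isoflurane were kept when each of the 8 libraries was left out in turn and in all 8 other alternatives at the threshold of 0.05.

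**Figure D2:**
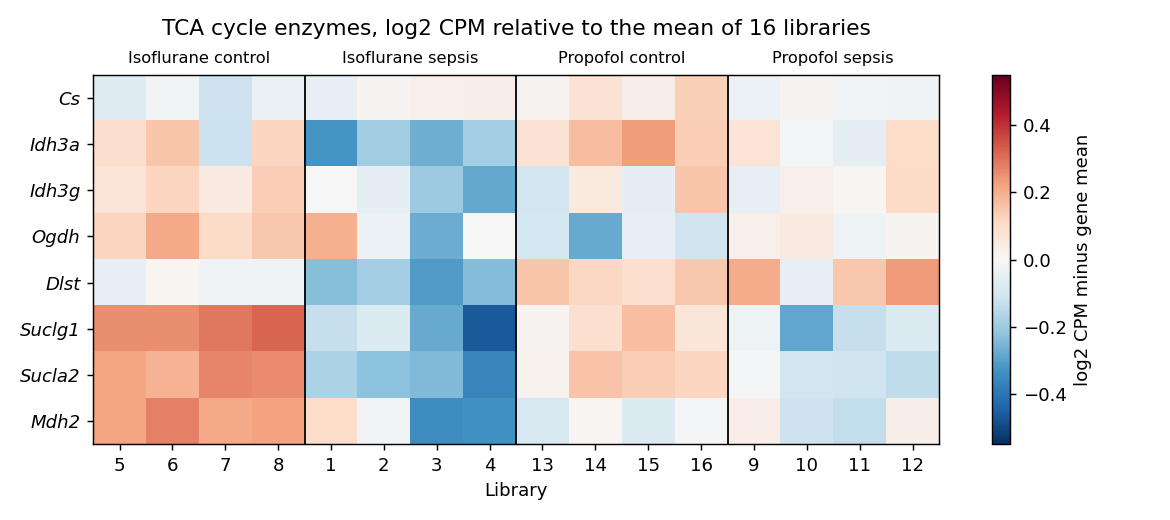
Each tile is the log2 CPM of a gene (row) in a library (column) minus the mean of that gene over the 16 libraries; red is above and blue below that mean, and vertical lines part the 4 groups. Libraries 3 and 4 of isoflurane sepsis are blue in most rows, Cs stays pale throughout, and Dlst is redder in most propofol libraries.

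The 4 isoflurane sepsis libraries did not shift equally. Averaged over the 8 genes, log2 CPM relative to the mean of the isoflurane controls was -0.20, -0.22, -0.36 and -0.35 in libraries 1 to 4, with a mean of -0.28 ± 0.0854 (SD, n = 4). In propofol sepsis it was -0.0185, -0.11, -0.0863 and -0.0162 in libraries 9 to 12, with a mean of -0.0565 ± 0.0459 relative to the propofol controls. Thus every sepsis library was below the mean of its own controls, and the isoflurane libraries further so. The propofol controls themselves lay between -0.0479 and 0.0327, a range that held libraries 9 and 12. The isoflurane controls lay between -0.0367 and 0.0296, above every isoflurane sepsis library. In isoflurane sepsis 6, 7, 7 and 7 of the 8 genes were below the lowest own control, and in propofol sepsis 4, 5, 5 and 3. Of all genes tested, 38.8% to 45.6% lay below the lowest own control in a library of isoflurane sepsis and 33.4% to 38.1% in 1 of propofol sepsis. The summed CPM of the 8 genes was 755 ± 58.0 in isoflurane sepsis, 926 ± 14.9 in isoflurane control, 842 ± 35.5 in propofol sepsis and 860 ± 13.4 in propofol control.

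The question whether the response to sepsis depended on the anesthetic was put to an interaction test with every library, isoflurane minus propofol. The anesthetic goes together with the induction drug and with the set of libraries, which the test cannot tell apart. This test uses the same libraries as the comparisons above. Among the 8 genes 7 had a difference below 0, and the median difference was -0.26 on the log2 scale beside -0.02 over all genes tested, but edgeR called 0 of 8. At an unadjusted p below 0.05 there were 7 of 8 (all but Idh3a), where 23.1% of the 10621 genes tested reached this, and 2.72% of them passed after adjustment. Mdh2 differed most, by -0.36 ± 0.126 (SE; 95% interval from -0.63 to -0.10; adjusted p = 0.109). Sucla2 had the smallest adjusted p, at 0.0645, with a difference of -0.29 ± 0.0803. Ogdh, whose values under the 2 anesthetics lay on opposite sides of 0, differed by -0.31 ± 0.115 (adjusted p = 0.129). The differences for Suclg1, Dlst, Idh3g and Idh3a lay between -0.30 and -0.18 with adjusted p from 0.128 to 0.252. Cs was the only gene with a difference above 0, at 0.15 ± 0.0682 (adjusted p = 0.215).

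With DESeq2 the interaction of Sucla2 passed (adjusted p = 0.0114), as 1 of 8 genes where 8.00% of all genes were called. Without library 1, edgeR called Ogdh (adjusted p = 0.0204), Sucla2 (0.0193) and Mdh2 (0.0159), where 15.1% of all genes were called, and without library 10 it called Dlst (0.0469), where 3.73% were. That the falls were called for more genes under isoflurane is therefore not, by edgeR on all libraries, a shown difference between the anesthetics for any single member.

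**Figure D3:**
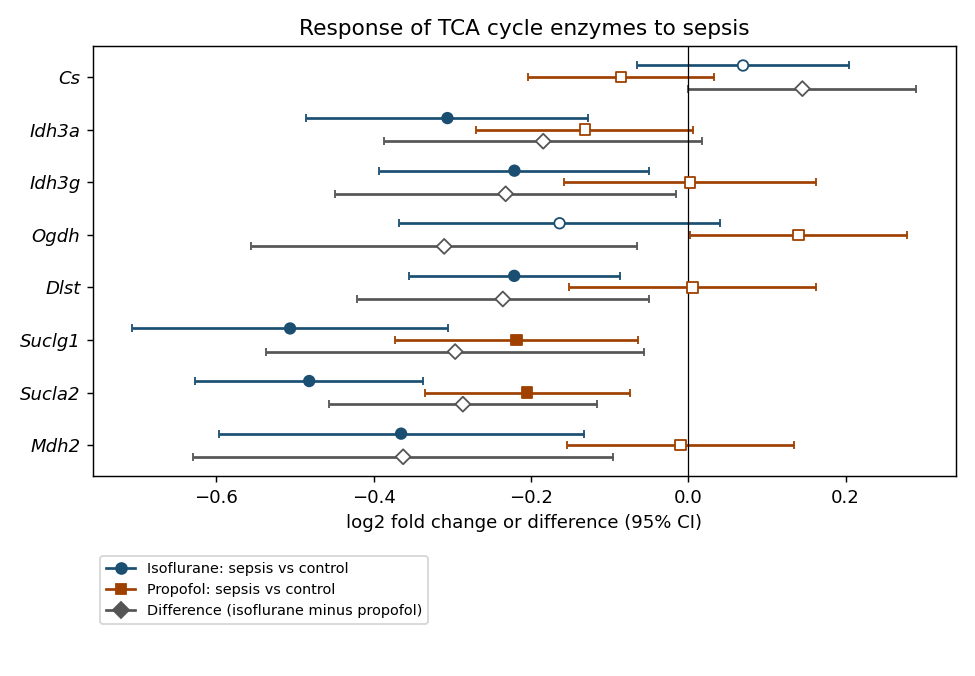
Log2 fold change of sepsis against control under isoflurane (circles) and propofol (squares), and the difference between both, isoflurane minus propofol (diamonds), for the 8 genes with 95% confidence intervals; filled marks passed an adjusted p below 0.05 and open marks did not. All diamonds are open and all but that of Cs lie left of 0, with Mdh2 furthest at -0.36.

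Levels were also compared between the anesthetics within control and within sepsis. Here the anesthetic goes together with the induction drug and with the set the libraries belong to, as their names in the files show, and these cannot be told apart. In isoflurane control, Ogdh was higher than in propofol control (174.6 ± 5.60 against 144 ± 9.78 CPM, log2 difference 0.28 ± 0.0817, adjusted p = 0.0214) and so was Mdh2 (197 ± 4.25 against 163 ± 5.55 CPM, 0.27 ± 0.0889, adjusted p = 0.0352). These were 2 of 8, where 13% of all genes were called higher. The call of Ogdh was lost without library 6 or 14 (adjusted p up to 0.0705) and that of Mdh2 without any 1 of the 8 control libraries (up to 0.0870).

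In isoflurane sepsis, 3 of 8 genes were lower than in propofol sepsis, where 19% of all genes were called lower. Dlst measured 162 ± 5.84 against 211 ± 17.8 CPM (log2 difference -0.38 ± 0.0620, adjusted p = 4.816e-04). Idh3a measured 28.1 ± 1.25 against 33.9 ± 1.71 CPM (-0.27 ± 0.0677, adjusted p = 0.00616). Sucla2 differed by -0.16 ± 0.0570 (adjusted p = 0.0373), a call lost without any 1 of libraries 2, 3, 4, 5, 8, 9 and 11, with RLE size factors (adjusted p = 0.0530), with no limit on low counts (0.0551) and with thinned counts (0.153). The calls of Dlst and Idh3a were kept without any 1 of the 16 libraries and in all 7 other alternatives.

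Between the anesthetics the scaling mattered. With library totals in place of TMM the median of all genes moved to -0.15 between the controls and to -0.16 between the sepsis groups. Between the controls, Ogdh and Mdh2 were then no longer called and Cs, Idh3a and Dlst were called lower, so the split turned from 2 higher and 0 lower to 0 higher and 3 lower, where 26.5% of all genes were called lower. Cs was also called lower between the controls with DESeq2 (adjusted p = 0.0392). Between the sepsis groups, 7 of 8 genes were then called lower, as were 32.6% of all genes. Relative to the median of all genes, the median of the 8 genes was 0.10 in the controls under either scaling, and in sepsis -0.12 with TMM and -0.11 with library totals.

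No ratio between subunits of the same enzyme passed its test. The ratio of Suclg1 to Sucla2 CPM was 1.69 ± 0.128 in isoflurane sepsis and 1.72 ± 0.0244 in control, and 1.63 ± 0.114 and 1.64 ± 0.0503 under propofol. The ratio of Ogdh to Dlst was 0.963 ± 0.111 and 0.925 ± 0.0180 under isoflurane and 0.763 ± 0.0803 and 0.691 ± 0.0495 under propofol. That of Idh3a to Idh3g was 0.908 ± 0.109 and 0.955 ± 0.0602 under isoflurane and 0.978 ± 0.0568 and 1.08 ± 0.0940 under propofol. In 6 two-sided exact permutation tests of 4 libraries against 4, whose smallest possible p is 0.0286, p lay between 0.143 and 0.83 and the adjusted p between 0.686 and 0.83. These ratios were chosen after the values had been seen, and a p of this size does not show that the proportions were equal.

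Over the 16 libraries, which share 4 groups, the log2 levels of Suclg1 and Sucla2 had a Pearson r of 0.941, and of 0.710 after each gene was centred within its groups. Against the mean of the other members, Sucla2 (r = 0.863), Suclg1 (0.853), Idh3g (0.804) and Mdh2 (0.793) were most alike, Idh3a reached 0.685 and Dlst 0.506, Ogdh only 0.262, and Cs was negative at -0.280. Within groups Mdh2 had the highest value at 0.867, while Idh3a dropped to 0.137. The genes outside the list most like the mean of the 8, among 9175 with sufficient level, were Flad1 (r = 0.961), Ndufs1 (0.961), Guf1 (0.952), Txn2 (0.948) and Acad9 (0.948). Centred within groups they were Mrps21 (0.914), Tm2d2 (0.907), Mtch2 (0.897), Jagn1 (0.895) and Pxmp2 (0.890). With library totals as the scaling, 0 of the 5 genes over all libraries were the same, so those names depend on the scaling, whereas Tm2d2 and Jagn1 remained within groups.

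**Figure D4:**
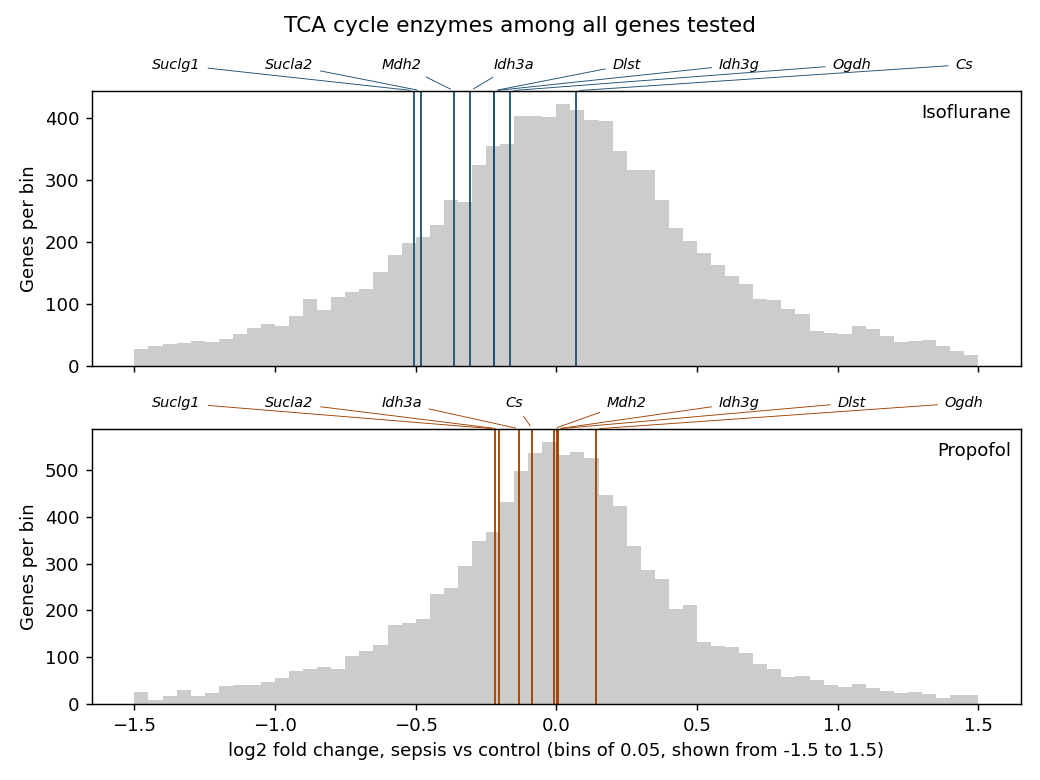
Histogram of the log2 fold changes of all genes tested (10361 under isoflurane, 10348 under propofol; bins between -1.5 and 1.5), with a line at the value of each of the 8 genes. Under isoflurane 7 of 8 lines lie left of 0, and Suclg1, the lowest, is at -0.51, inside the bulk of the distribution.

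The sizes were modest against the whole transcriptome. Under isoflurane 18.2% of all genes had a lower fold change than Suclg1 and 19.1% a lower one than Sucla2. Under propofol these shares were 29.3% and 30.3%.

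The remaining enzymes of the cycle and 3 related lists were also read. Dhtkd1, which is related to Ogdh but outside the cycle, is counted with these enzymes. The background is the 24.4% of all genes called lower and 25.7% called higher under isoflurane and the 21.7% and 20.4% under propofol. Of the 11 genes so counted, 6 fell and 0 rose under isoflurane, with a median log2 fold change of -0.38. Under propofol 2 fell and 0 rose, with a median of -0.14, so that the propofol count is near the background. Dhtkd1 is among those that fell under each anesthetic. With library totals 5 fell under propofol, Sdhb, Sdhc and Sdhd being added, where 26.1% of all genes were called lower. All 4 subunits of succinate dehydrogenase fell under isoflurane, Sdhd by 0.55, Sdhc by 0.46, Sdhb by 0.38 and Sdha by 0.32 on the log2 scale (adjusted p from 0.00156 to 0.0122). Under propofol their values were between -0.18 and -0.09 and did not pass (adjusted p from 0.0575 to 0.245). Dhtkd1, the 2-oxoadipate dehydrogenase related to Ogdh, fell from 155 ± 12.3 to 58.7 ± 26.9 CPM under isoflurane and from 137 ± 11.8 to 77.7 ± 18.1 under propofol (adjusted p = 0.00655 and 0.00245).

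Dld, the dihydrolipoamide dehydrogenase shared with pyruvate dehydrogenase, and Idh2, the NADP-dependent isocitrate dehydrogenase, passed under neither anesthetic. The same held for Suclg2, the GDP-forming partner of Suclg1, for Fh (fumarase) and for the scarce Ogdhl. Suclg2 measured 175 ± 7.73 CPM in isoflurane sepsis against 181 ± 5.93 in control (log2 fold change -0.04, adjusted p = 0.612), beside the fall of both subunits of the ADP-forming enzyme. Idh2 ranged from 12.6 to 36.6 CPM within isoflurane sepsis (-0.42, adjusted p = 0.235). Ogdhl under propofol, at a log2 fold change of 1.47 (adjusted p = 0.0855), was called higher with DESeq2 (0.0461) and in a single fit of all 16 libraries (0.0369). Interactions were called for 0 of these 11 genes, and Dld was called lower under isoflurane only without library 1 and higher under propofol only without library 10.

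**Figure D5:**
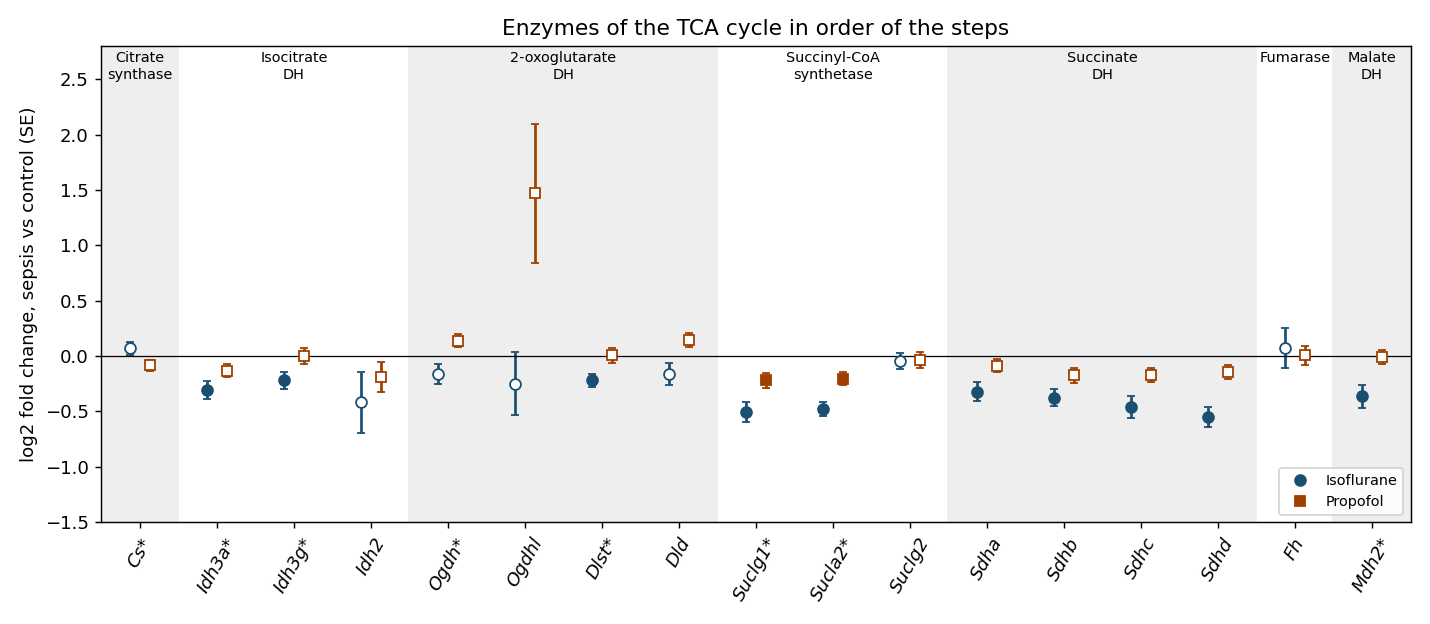
Log2 fold change of sepsis against control with its SE for enzymes of the cycle in the order of the steps, under isoflurane (circles) and propofol (squares); an asterisk marks the 8 genes described here, DH is dehydrogenase, and filled marks passed the test. Filled circles mark Idh3a, Idh3g, Dlst, both subunits of the ADP-forming succinyl-CoA synthetase, all 4 subunits of succinate dehydrogenase and Mdh2, while Cs, Fh and Suclg2 are open and near 0.

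Lipoic acid is attached to Dlst for its function. Of the 3 genes of this pathway tested, Lias, which makes the lipoyl group, and Lipt1, which transfers it, fell under both anesthetics. Lias measured 5.68 ± 0.822 CPM in isoflurane sepsis against 14.2 ± 0.401 in control (log2 fold change -1.32, adjusted p = 7.897e-05) and 8.72 ± 1.23 against 15.1 ± 1.83 under propofol (-0.80, adjusted p = 8.963e-04). Lipt1 was at -0.91 (adjusted p = 0.00219) and -0.59 (adjusted p = 0.0143), and Lipt2 did not pass (adjusted p = 0.354 and 0.972). Both were scarce. Lipt1 measured 1.04 ± 0.153 CPM in isoflurane sepsis against 1.94 ± 0.154 in control, and 1.97 ± 0.247 against 2.97 ± 0.246 under propofol. Lipt2 measured 1.10 ± 0.394 CPM in isoflurane sepsis and 1.32 ± 0.0941 in control. The fall of Lias exceeded that of every one of the 8 enzymes in size, though this difference between genes was not tested.

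Of 13 genes of the pyruvate dehydrogenase step and its control, which feeds acetyl-CoA to Cs, 5 fell and 4 rose under isoflurane, and 4 fell and 2 rose under propofol, where 1 or 2 rose over the alternatives. Pdp1, a phosphatase that activates pyruvate dehydrogenase, rose from 8.83 ± 0.704 to 19.4 ± 3.58 CPM under isoflurane (adjusted p = 2.590e-04) and from 5.28 ± 0.435 to 10.8 ± 2.20 under propofol (adjusted p = 5.097e-04). Mpc2, a subunit of the mitochondrial pyruvate carrier, fell by 0.55 and 0.48 on the log2 scale (adjusted p = 2.731e-04 and 0.00279). Pdk2, a kinase that inactivates the complex, fell under both, with log2 fold changes of -1.08 (adjusted p = 0.0346) and -1.39 (adjusted p = 3.049e-04), and the isoflurane call was lost without any 1 of libraries 1, 5, 6, 7 and 8 (adjusted p up to 0.0800). Mpc1 was at -0.36 and -0.10 and Pdp2 at 0.84 and 0.06, both passing under isoflurane, and Pdhx was at -0.04 and -0.29, passing under propofol.

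Of 17 genes of anaplerosis and of cytosolic counterparts, 9 fell and 0 rose under isoflurane, and 11 fell and 2 rose under propofol. In a single fit of all 16 libraries 7 fell under propofol, where 19.2% of all genes were called lower. Aco1 and Idh1, both cytosolic enzymes, fell, with log2 fold changes of -1.42 and -1.63 under isoflurane and -1.004 and -1.54 under propofol (adjusted p from 6.442e-05 to 1.968e-04). Pc, pyruvate carboxylase, which makes oxaloacetate, fell from 202 ± 6.95 to 112 ± 23.1 CPM under isoflurane (adjusted p = 0.00137), and the 2-oxoglutarate carrier Slc25a11 fell from 31.0 ± 1.47 to 18.6 ± 1.44 CPM (adjusted p = 2.215e-04). Both fell under propofol too, with log2 fold changes of -0.53 (adjusted p = 0.00504) and -0.56 (adjusted p = 0.00146). Under propofol Glud1, glutamate dehydrogenase, fell from 699 ± 47.7 to 489 ± 50.0 CPM (adjusted p = 0.00115), a call lost in that single fit (adjusted p = 0.0548). Got1, the cytosolic aspartate aminotransferase, rose from 158 ± 46.3 to 700 ± 194 CPM under propofol (adjusted p = 1.866e-04). Under isoflurane Glud1 was at -0.42 (adjusted p = 0.202) and Got1 at 0.08 (adjusted p = 0.763) on the log2 scale.

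Cell type markers moved with the same comparisons, and their part in the results was not tested. Counts of markers called are read against 24.4% of all genes called lower and 25.7% called higher under isoflurane. Under propofol these shares were 21.7% and 20.4%. The summed CPM of 10 hepatocyte markers was 131230 to 151542 in isoflurane sepsis, below 152024 to 162568 in control, with 4 of 10 called lower and 1 higher. It was 108549 to 122117 in propofol sepsis and 113497 to 125607 in propofol control, with 2 called lower and 1 higher. Alb weighed most in this sum, at up to 93995 CPM in a library, while the next highest of these markers, Apob, reached 22141. Under isoflurane Alb was called lower (log2 fold change -0.25, adjusted p = 0.0158) and Apob higher (0.60, adjusted p = 0.00414). Neutrophil and monocyte markers summed to 215 to 571 CPM in isoflurane sepsis against 63.8 to 69.4 in control, and to 157 to 230.1 in propofol sepsis against 61.9 to 91.0 in control, with 8 of 9 tested called higher under each anesthetic. Cd14 weighed most in this sum, at up to 359 CPM in a library, while the next highest of these markers, Il1b, reached 75.4. The neutrophil gene Mpo had 6 reads in all 16 libraries. Endothelial markers summed to 150.0 to 175 CPM in isoflurane sepsis against 201 to 256 in control, with 4 of 7 lower, and to 207 to 219 against 231 to 281 under propofol, with 2 lower and 1 higher. Kupffer cell markers summed to 449 to 588 CPM in isoflurane sepsis against 377 to 467 in control and to 404 to 478 against 446 to 494 under propofol, with 6 and 2 of 10 called higher and 1 called lower in each. Lymphocyte markers summed to 30.6 to 49.9 CPM in isoflurane sepsis against 21.6 to 25.8 in control and to 28.04 to 34.5 against 26.1 to 29.6 under propofol, with 3 and 1 of 4 tested called higher and 0 and 1 called lower, and Cd3d, Cd3e and Cd3g had 27, 50 and 21 reads in all. Most reads of the lymphocyte markers were of Ptprc (5348) and Cd4 (3854), and the next, Cd8a, had 306. Stellate cell and cholangiocyte markers summed to between 125 and 175 CPM over the 4 groups. Of 7 such markers, 3 and 1 were called higher and 1 and 2 lower under isoflurane and propofol.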

How the data were processed

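Polyadenylated liver RNA was sequenced with a strand-keeping kit, and for each of 16 libraries the authors deposited counts, the whole number of reads on 17055 gene symbols, not normalized. The submitters' processing notes list STAR and build rn5. The counting program was not given in the sources used here, nor was the annotation. Entries that name no gene (21.6% to 25.4% of reads outside genes and 1.07% to 1.35% ambiguous) were left out. Groups came from the sample labels.

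Counts were tested with edgeR 4.0.16 in R 4.3.3 (quasi-likelihood, TMM scaling, filterByExpr at min.count 10 and min.total.count 15, Benjamini-Hochberg over all genes tested, called below 0.05), in fits of 4 libraries against 4 within each anesthetic, and in a fit of all 16 libraries for the interaction and the comparisons between anesthetics. The script was tested on simulated data. Alternatives were RLE size factors, library totals, DESeq2 1.42.0, limma-voom (limma 3.58.1), no limit on low counts, thinned counts, a limit of 1 on the mean CPM, all libraries in 1 fit, a threshold of 0.01 and each library left out in turn. In these tests a difference is judged against the spread between pools.

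The members and gene lists were chosen with earlier results of these data known. All members are described. Of the other lists, every enzyme of the cycle and up to 4 genes with the smallest adjusted p per comparison are named, except 1 gene that is not reported here by name and remains in the counts. Likeness is Pearson's r of log2(CPM + 0.5) over the 16 libraries with the mean of the members, among genes whose mean log2 CPM was 1 or more. No transcript lengths or protein sequences were used, and coordinates of the counted genes are not given.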

Additional observations from a re-analysis of the deposited data

Results flagged for a closer look

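Got1, the cytosolic aspartate aminotransferase, stood out because its response to sepsis differed between the anesthetics in the interaction test (log2 difference -2.08 ± 0.333, isoflurane minus propofol; edgeR's quasi-likelihood test, adjusted p = 0.0106). It ranged from 813 to 1482 CPM in isoflurane sepsis and from 964 to 1323 in isoflurane control, but from 565 to 982 in propofol sepsis against 96.5 to 198 in propofol control. The propofol control libraries thus lay below those of the other 3 groups. Anesthetic, induction drug and set of libraries cannot be told apart here either. The difference passed the test in all 23 alternatives, with an adjusted p of up to 0.0281. It is 1 of 17 genes of anaplerosis and cytosolic counterparts, where 2.72% of all genes had a called interaction. Within the 32 combinations of a member and a group, 0 held a library far from the other 3.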

How the results depend on the processing

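Under isoflurane the 8 genes had 5 to 7 calls with a library left out. They had 6 in the other alternatives, save 2 at an adjusted p below 0.01. Of all genes, 37.4% to 54.4% were called over these settings, not counting the threshold of 0.01, whose shares are not given. Under propofol 2 calls became 3 with library totals, 1 with no limit on low counts and 0 at an adjusted p below 0.01. With a library left out there were 0 to 2. Of all genes, 42.3% were called with library totals, 29.0% with no limit and 33.5% to 41.3% with a library left out. The median of the 8 genes was -0.10 with library totals. For the interaction, 0 calls became 1 with DESeq2 and 0 to 3 with a library left out. Of all genes, 8.00% were called with DESeq2 and 0.504% to 15.1% with a library left out. Between the controls, 2 calls became 3 with DESeq2 and with library totals and 1 with no limit on low counts. They became 0 at an adjusted p below 0.01 and 0 to 3 with a library left out. Of all genes, 29.1% were called with DESeq2, 33.0% with library totals, 17.4% with no limit and 19.0% to 30.2% with a library left out. The median of the 8 genes was -0.0421 with library totals. Between the sepsis groups library totals gave 7 calls in place of 3 and a median of -0.28, while RLE size factors, no limit on low counts, thinned counts and an adjusted p below 0.01 each gave 2, and leaving out a library gave 2 to 4 (4 without library 1, with Idh3g added). Between the sepsis groups 43.4% of all genes were called with library totals, 38.8% with RLE size factors, 28.7% with no limit and 36.6% with thinned counts. With a library left out the share was 29.3% to 44.1%. The library totals values follow the shift of all genes, and the cause of the other changes was not tested.

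Values near 0 changed sign. Under propofol, Idh3g was -0.0516 with library totals, -0.0068 with no limit on low counts, -0.0049 with thinned counts and -0.0353 to 0.055 with a library left out. Dlst was -0.0494 with library totals, -0.002 with no limit and -0.0266 to 0.0689 with a library left out, Mdh2 -0.0398 to 0.0224, and Fh -0.0498 with library totals, -0.0018 with limma-voom, -0.0071 with no limit and -0.052 to 0.0498 with a library left out. Lipt2 was 0.033 with limma-voom and -0.2021 to 0.1533 with a library left out. Pdp2 ranged from -0.0552 to 0.2632. Under isoflurane Fh ranged from -0.0429 to 0.2242 and Got1 from -0.063 to 0.2243, and Pdhx was 0.0151 with thinned counts and -0.081 to 0.0261 with a library left out. Between the controls, library totals gave -0.0668 for Idh3g and -0.0173 for Sucla2, and between the sepsis groups -0.1282 for Cs, where Ogdh ranged from -0.113 to 0.0419. No paired analysis was possible because the libraries are numbered 1 to 16 and no number is shared between groups.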
